A study of Mus musculus with 12 samples.

Results

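Creatine is made, moved and used by a small set of proteins, and the 5 genes described here cover each of those steps: Gatm and Gamt (synthesis), Slc6a8 (uptake), and Ckb and Ckmt1 (kinases). They were picked by symbol among the 17007 genes of the deposited expression table. Gatm was picked because its RNA was high with everolimus only, so its levels are a description and no test of it is given. The other 4 were picked for their place in creatine metabolism, with earlier results of these data known.

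Glycine amidinotransferase, the Gatm product, joins arginine to glycine and yields guanidinoacetate. Guanidinoacetate methyltransferase, the Gamt product, adds a methyl group from S-adenosylmethionine and yields creatine. SLC6A8 carries creatine into cells with sodium, and the creatine kinases pass phosphate between ATP and creatine. The amidinotransferase is best known from kidney and pancreas and the methyltransferase from liver, while liver cells are known for low creatine kinase activity.

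RNA was sequenced from the livers or liver tumors of 12 mice in 4 groups of 3. Normal livers (NL) came from C57BL/6 wild-type mice. The 9 tumors were c-MYC/MCL1/Rictor KO Tsc2 KO hepatocellular carcinomas (HCCs), and vehicle and drug groups share their floxed genes and plasmids. The tumors were raised in mice floxed at both genes (Rictor fl/fl, Tsc2 fl/fl, C57BL/6J) by hydrodynamic tail vein injection of c-MYC, MCL1 and pCMV-Cre plasmids. This injection delivers plasmids to a part of the hepatocytes, and other cells of the host liver keep the floxed genes intact. By the labels and methods, mice were given vehicle, MLN0128 or everolimus on 6 days a week for 3 weeks from day 6 after injection. Each drug was given at 1 mg/kg per day by gavage, and mice were sacrificed at 3.7 weeks. The study's results text instead gives 3 days of treatment for the tumors that were sequenced, so the length of treatment is uncertain. MLN0128 blocks the mTOR kinase in both of its complexes, and everolimus, a rapamycin analog, acts on mTORC1. The drug groups were meant to separate genes under the S6 kinase branch of mTORC1, which everolimus blocks, from those under the 4EBP1 branch, which MLN0128 blocks as well. Ages were not given in the sources used here. Expression is given as FPKM, a level per kilobase of transcript adjusted for the size of each library, and n is 3 in every group.

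The libraries held 17176675 to 25163918 recovered reads. Rictor stood at 1.05 to 2.21 FPKM in the tumors against 1.65 to 2.57 in NL, and Tsc2 at 2.01 to 3.96 against 4.50 to 5.32, values over the whole gene that also count RNA from cells without Cre. Markers of hepatocytes, 8 in all, summed to between 82854 and 103385 FPKM in NL and to between 1759 and 7858 FPKM in the tumors. Most of the NL sum was Alb, at 57200 to 76600 FPKM in NL and 482 to 4860 in the tumors. All 8 were lower in every tumor, by unlike amounts: Hnf4a stood at 199 to 239 FPKM in NL and 66.5 to 113 in the tumors. Xist RNA was seen in replicates 1 and 2 of MLN0128, where 4 Y-linked genes were at 0, and the remaining 10 libraries were the reverse, so sex and drug cannot be fully told apart for MLN0128.

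The proximal promoters of Gatm, Gamt and Ckb are shown: Gatm and Ckb because their levels set the tumor groups apart, and Gamt as the partner of Gatm in synthesis. Each covers 250 bases before to 50 bases after the RefSeq start on GRCm38.p6, written 5′ to 3′ on the gene's strand. Capitals mark the CCAAT box, the TATA box (TATAAA) and the GC box (GGGCGG) on either strand, so that ATTGG is the first of these and the motif CCGCCC the last, read from the other strand.
Gatm, chr2:122611228-122611527, minus strand: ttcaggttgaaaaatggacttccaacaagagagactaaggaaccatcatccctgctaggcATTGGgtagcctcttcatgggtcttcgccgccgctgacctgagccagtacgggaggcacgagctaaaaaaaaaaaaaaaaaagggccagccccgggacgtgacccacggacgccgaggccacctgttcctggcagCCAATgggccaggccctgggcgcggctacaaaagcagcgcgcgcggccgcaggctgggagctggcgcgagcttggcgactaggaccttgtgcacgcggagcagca
Gamt, chr10:80260963-80261262, minus strand: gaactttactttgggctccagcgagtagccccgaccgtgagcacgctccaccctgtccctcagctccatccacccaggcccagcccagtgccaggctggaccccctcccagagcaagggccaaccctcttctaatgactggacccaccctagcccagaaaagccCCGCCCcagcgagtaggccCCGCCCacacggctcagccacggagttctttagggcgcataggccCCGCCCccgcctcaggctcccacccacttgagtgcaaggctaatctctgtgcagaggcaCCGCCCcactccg
Ckb, chr12:111672289-111672588, minus strand: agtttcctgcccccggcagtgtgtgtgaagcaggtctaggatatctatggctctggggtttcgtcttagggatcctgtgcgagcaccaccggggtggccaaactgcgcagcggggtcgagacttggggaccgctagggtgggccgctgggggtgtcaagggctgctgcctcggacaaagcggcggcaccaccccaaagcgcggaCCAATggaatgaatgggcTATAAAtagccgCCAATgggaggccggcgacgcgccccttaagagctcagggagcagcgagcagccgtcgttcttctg
The Gatm window held CCAAT at 55 bases before the start and, on the other strand, at 190 bases before it. The Ckb window held TATAAA at 28 bases and CCAAT at 46 and 16 bases before the start, and the Gamt window held 4 copies of GGGCGG, all on the other strand. No motif overlapped another. The E-box CACGTG was also searched on both strands, as was the motif TGATGNAA, and neither was in any of the 3 windows. Among 32851 RefSeq promoters of this length, 37.4% held the CCAAT box, 13.6% the TATA box, 35.7% the GC box, 7.15% the E-box and 3.97% the motif TGATGNAA. A match describes the letters only.

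Gatm RNA was low in the vehicle tumors and high with everolimus. The gene lies on chr2:122594467-122611303, minus strand, and no annotated gene overlaps it. In NL its levels were 8.96, 9.52 and 9.45 FPKM. In vehicle tumors they were 2.35, 2.34 and 2.29 FPKM, the narrowest spread of the 4 groups. With MLN0128 they were 6.73, 1.59 and 7.33 FPKM, so replicate 2 lay below every vehicle tumor and the other two above. With everolimus they were 80.5, 43.0 and 61.0 FPKM, above every other library. The everolimus values rested on 3905 to 4567 reads a library and the vehicle values on 148 to 160.

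By mean level the order for Gatm was vehicle (2.33 ± 0.0321 FPKM, SD), MLN0128 (5.22 ± 3.16), NL (9.31 ± 0.305) and everolimus (61.5 ± 18.8). Vehicle and MLN0128 overlapped, and the other neighbours in that order did not. The everolimus mean was 26.4 times the vehicle mean and 11.8 times the MLN0128 mean. On the log2(FPKM + 1) scale, everolimus minus vehicle was 4.19, MLN0128 minus vehicle 0.73 (1.27 without MLN0128 replicate 2), MLN0128 minus everolimus -3.46 and vehicle minus NL -1.63. These are the contrasts that chose the gene, or share its vehicle libraries.

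Organs known for high Gatm were checked by their markers. Of 11 exocrine pancreas markers, 2 (Cela1 and Cela2a) were in the table, with a summed level of 25.8 to 38.5 FPKM in NL, 2.4 to 4.63 in vehicle tumors, 1.3 to 2.11 under MLN0128 and 1.06 to 2.45 under everolimus. Of 9 kidney tubule markers, 2 (Slc12a1 and Slc22a6) were in the table, at no more than 0.297 FPKM in sum in any library. The markers in the table were not high in the everolimus libraries, and the other markers of both lists were not analysed here. In NL Cela1 alone stood at 24.2 to 37 FPKM. With so few markers, a part of either organ in the Gatm levels was not tested. In bulk tissue, a change in the cells that hold an RNA and a change in RNA per cell cannot be told apart.

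**Figure D1:**
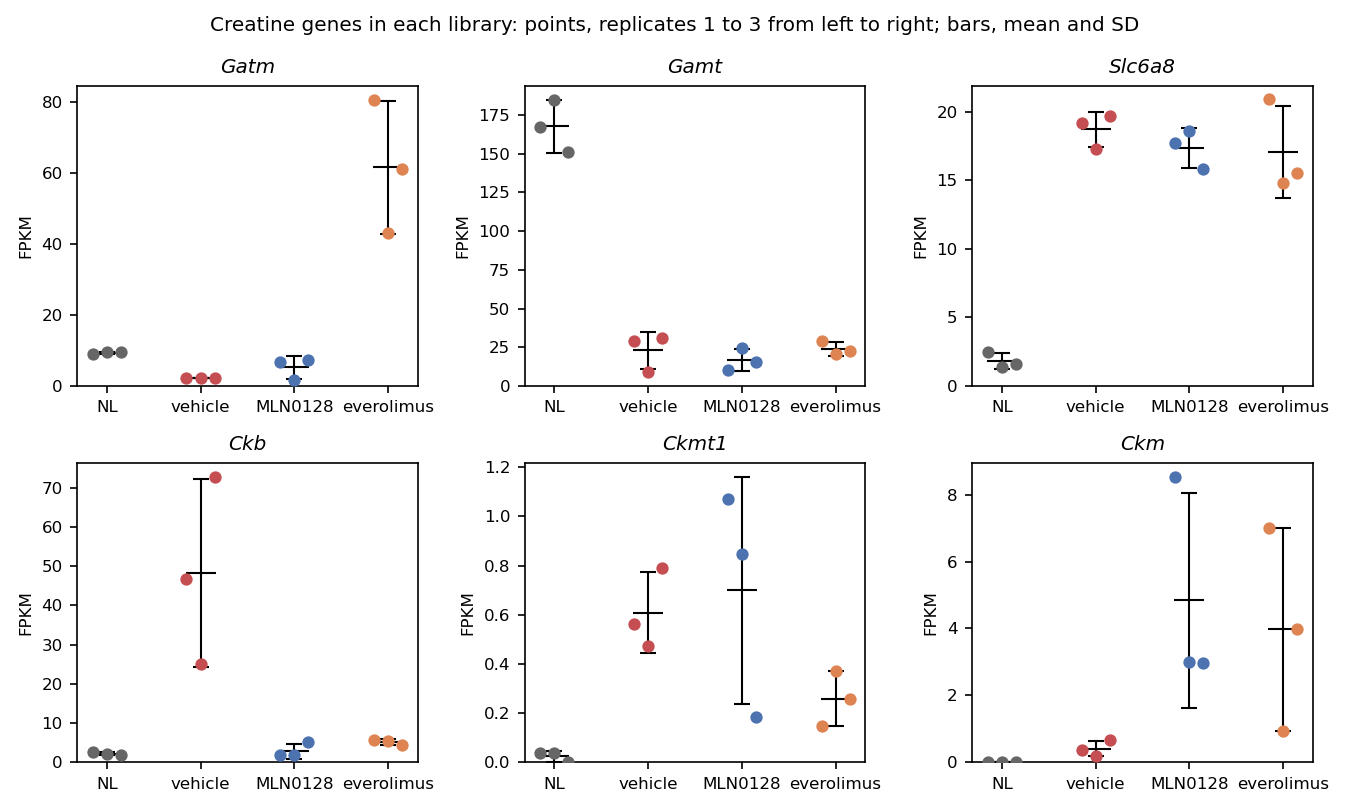
Level of each creatine gene, and of the muscle kinase Ckm, in FPKM on a linear axis from 0 in each panel. Colored points are the 3 libraries of a group, replicates 1 to 3 from left to right, and bars give the mean and SD. Gatm is at 43.0 to 80.5 FPKM in the everolimus libraries and at 9.52 or less elsewhere, and Ckb is at 25.0 to 72.8 in the vehicle tumors and at 5.76 or less elsewhere.

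Gamt RNA was lower in the vehicle tumors than in NL and did not pass the test in any comparison among the tumors. The gene lies on chr10:80258151-80261012, minus strand. NL held 167, 185 and 151 FPKM. Vehicle tumors held 28.9, 9.03 and 30.9 FPKM, with replicate 2 apart from the other two. MLN0128 tumors held 10.6, 24.7 and 15.6 FPKM. Everolimus tumors held 28.8, 20.6 and 22.3 FPKM, and the 3 tumor groups overlapped one another throughout. The NL mean (168 ± 17.0 FPKM) was 7.31 times the vehicle mean (22.9 ± 12.1). This ratio, like the other ratios to NL given here, rests on the authors' scaling between libraries.

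Gamt fell by 2.99 from NL to vehicle on the log2(FPKM + 1) scale (SE 0.395, adjusted p = 3.56e-05, moderated test of limma, Benjamini-Hochberg over 14397 genes). Against a fold of 1.5, limma's treat test gave an adjusted p of 0.000231. With FPKM rescaled to the same sum in every library the difference was -1.84, and with plain library totals -2.06, both past the threshold. Of all genes tested in this comparison, 33.0% were called lower and 36.0% higher by the moderated test, and 32.7% in either direction by treat. Among the tumors, MLN0128 minus vehicle was -0.32 (95% interval -1.18 to 0.55, adjusted p = 0.574), everolimus minus vehicle 0.22 (-0.65 to 1.08, adjusted p = 0.777) and MLN0128 minus everolimus -0.53 (-1.40 to 0.33, adjusted p = 0.425). Without vehicle replicate 2, MLN0128 minus vehicle became -0.86 with an adjusted p of 0.0387. The summed hepatocyte markers given above were also lower in all tumors than in NL, and their part in the Gamt result was not tested.

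Set side by side, Gamt exceeded Gatm in every library but those with everolimus. The ratio of Gamt to Gatm FPKM was 18.6, 19.4 and 16.0 in NL and 12.3, 3.86 and 13.5 with vehicle. With MLN0128 it was 1.58, 15.5 and 2.13, and with everolimus 0.358, 0.479 and 0.366. Because this ratio holds Gatm, it is a description too. Put the other way, Gatm was 2.80, 2.09 and 2.74 times Gamt in the everolimus tumors.

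**Figure D2:**
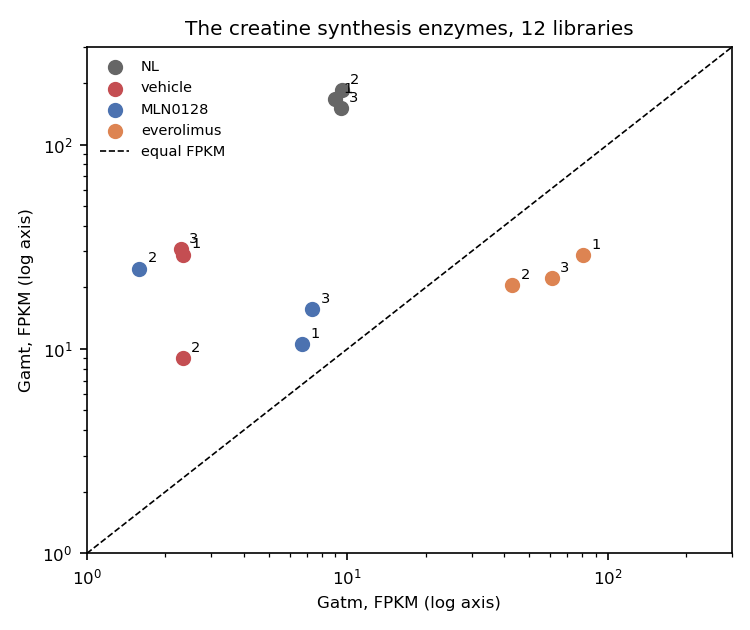
Gamt against Gatm in FPKM, both on log axes; each point is 1 of the 12 libraries, colored by group and numbered by replicate, and the dashed line marks equal levels. The 3 everolimus libraries lie below the line (Gamt to Gatm ratio 0.358 to 0.479) and the other 9 above it (1.58 to 19.4).

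Slc6a8, the creatine transporter gene, was higher in every tumor than in every normal liver, and did not pass the test in any comparison among the tumors. It lies on chrX:73673150-73682502, plus strand. NL held 2.47, 1.36 and 1.58 FPKM. Vehicle tumors held 19.2, 17.3 and 19.7 FPKM, MLN0128 tumors 17.7, 18.6 and 15.8, and everolimus tumors 20.9, 14.8 and 15.5. By mean the order was NL (1.80 ± 0.588), everolimus (17.1 ± 3.34), MLN0128 (17.4 ± 1.43) and vehicle (18.7 ± 1.27), and the 3 tumor groups overlapped.

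Slc6a8 rose by 2.83 on the log2(FPKM + 1) scale from NL to vehicle (SE 0.162, adjusted p = 6.04e-08, treat adjusted p = 3.76e-07), and the vehicle mean was 10.4 times the NL mean. With FPKM rescaled to 1 sum the difference was 4.11. MLN0128 minus vehicle was -0.10 (95% interval -0.46 to 0.25, adjusted p = 0.658). Everolimus minus vehicle was -0.14 (-0.50 to 0.21, adjusted p = 0.628), and MLN0128 minus everolimus was 0.04 (-0.32 to 0.39, adjusted p = 0.918). None of these intervals reached beyond 0.50 in either direction. Since Slc6a8 is X-linked, the MLN0128 libraries with Xist RNA bear on it, and they held 17.7 and 18.6 FPKM against 15.8 in the library without.

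Ckb, the brain-type cytosolic creatine kinase gene, was high in vehicle tumors alone: far lower in NL, and lower with each drug. It lies on chr12:111669361-111672338, minus strand. NL held 2.59, 2.16 and 1.82 FPKM. Vehicle tumors held 46.7, 25.0 and 72.8 FPKM, all above the other 9 libraries. MLN0128 tumors held 1.78, 1.77 and 5.08 FPKM, so replicates 1 and 2 lay just under the lowest normal liver. Everolimus tumors held 5.76, 5.54 and 4.39 FPKM, above every normal liver and overlapping MLN0128.

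From NL to vehicle Ckb rose by 3.83 on the log2(FPKM + 1) scale (SE 0.359, adjusted p = 2.35e-06, treat adjusted p = 1.1e-05), with a vehicle mean of 48.2 ± 23.9 FPKM, 22.0 times that of NL (2.19 ± 0.386). Rescaled to 1 sum, the difference was 5.11. With MLN0128 it fell by 3.64 from vehicle (SE 0.359, adjusted p = 9.04e-05, treat adjusted p = 0.00064) to 2.88 ± 1.91 FPKM. In that comparison 17.1% of tested genes were called lower, 14.9% higher, and 2.13% in either direction by treat. With everolimus it fell by 2.86 (SE 0.359, adjusted p = 0.000872, treat adjusted p = 0.00694) to 5.23 ± 0.736 FPKM. There 6.05% were called lower, 3.78% higher, and 0.604% by treat.

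The drugs were not shown to differ in Ckb. MLN0128 minus everolimus was -0.78 (95% interval -1.57 to 0.00, adjusted p = 0.188), in a comparison where 5.54% of tested genes were called lower, 3.99% higher and 0.0417% by treat. Leaving out MLN0128 replicate 3 made it -1.16 with an adjusted p of 0.0469. Leaving out MLN0128 replicates 1 and 2, those with Xist RNA, left 1 MLN0128 library. MLN0128 minus everolimus was then -0.03, and the fall from vehicle to MLN0128 was 2.89. Both drug comparisons share the vehicle libraries.

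Markers of bile duct cells moved with Ckb in part: of the 5 cholangiocyte markers in the table, of 6 listed, Krt19, Epcam and Sox9 were above the other 9 libraries in every vehicle tumor, and Krt7 and Spp1 were not. The keratin gene Krt19 stood at 29.6, 9.49 and 44.0 FPKM in the vehicle tumors, in the same order as Ckb, and at 0.152 to 0.944 in the other 9 libraries. Epcam stood at 3.96 to 5.23 FPKM with vehicle and at 2.03 or less elsewhere, and Sox9 at 1.74 to 3.85 and at 1.29 or less. The summed level of the 5, most of it Spp1 outside the vehicle tumors, was 40.2 to 43.6 FPKM in NL, 36.8 to 92.5 in vehicle tumors, 10.2 to 28.1 under MLN0128 and 17.2 to 61.8 under everolimus. By this sum MLN0128 lay wholly below vehicle and NL, while everolimus overlapped all groups. The 6 macrophage markers summed to 143 to 184 FPKM in NL, 71.4 to 112 in vehicle tumors, 42.8 to 91.9 under MLN0128 and 47.5 to 105 under everolimus. Of these 6, Cd68 alone was higher in every vehicle tumor (24.6 to 36.8 FPKM) than in the other 9 libraries, at 4.80 to 5.75 in NL, 5.37 to 12.4 under MLN0128 and 6.82 to 12.8 under everolimus. No marker of either list in the table was at 0 throughout a group, and their part in the Ckb result was not tested.

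Ckmt1, the ubiquitous mitochondrial creatine kinase gene, was scarce in every group. It lies on chr2:121357714-121363737, plus strand, 1.23 Mb from Gatm, and overlaps Strc on the opposite strand, so reads of the pair cannot be told apart unless counting used strand, which the sources used here do not give. Levels were 0.0372, 0.0363 and 0 FPKM in NL, 2 reads in all. They were 0.561, 0.475 and 0.791 FPKM with vehicle, from 25 to 46 reads a library. With MLN0128 they were 1.07, 0.846 and 0.184 FPKM, and with everolimus 0.148, 0.371 and 0.257. Replicate 3 of MLN0128 thus sat among the everolimus tumors, and the 2 MLN0128 libraries above all vehicle tumors were those with Xist RNA.

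Ckmt1 passed the filter on low values through 4 libraries, 2 of vehicle and 2 of MLN0128, so a difference of these groups from NL or everolimus was partly built into its being tested. The p-values given for it are therefore limma's with no filter on low values, and the intervals are those of the filtered fit. Vehicle minus NL was 0.65 on the log2(FPKM + 1) scale (adjusted p = 0.00559), but treat, run on the filtered genes, gave an adjusted p of 0.727. From the reads, the vehicle to NL ratio was 24.7, with an exact 95% interval of 6.68 to 207 that covers counting error only. Everolimus minus vehicle was -0.35 (95% interval -0.74 to 0.03, adjusted p = 0.221), although all 3 everolimus values lay below all vehicle values. MLN0128 minus vehicle was 0.04 (-0.34 to 0.43, adjusted p = 0.874) and MLN0128 minus everolimus 0.40 (0.01 to 0.78, adjusted p = 0.166), the latter 0.64 without MLN0128 replicate 3.

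**Figure D3:**
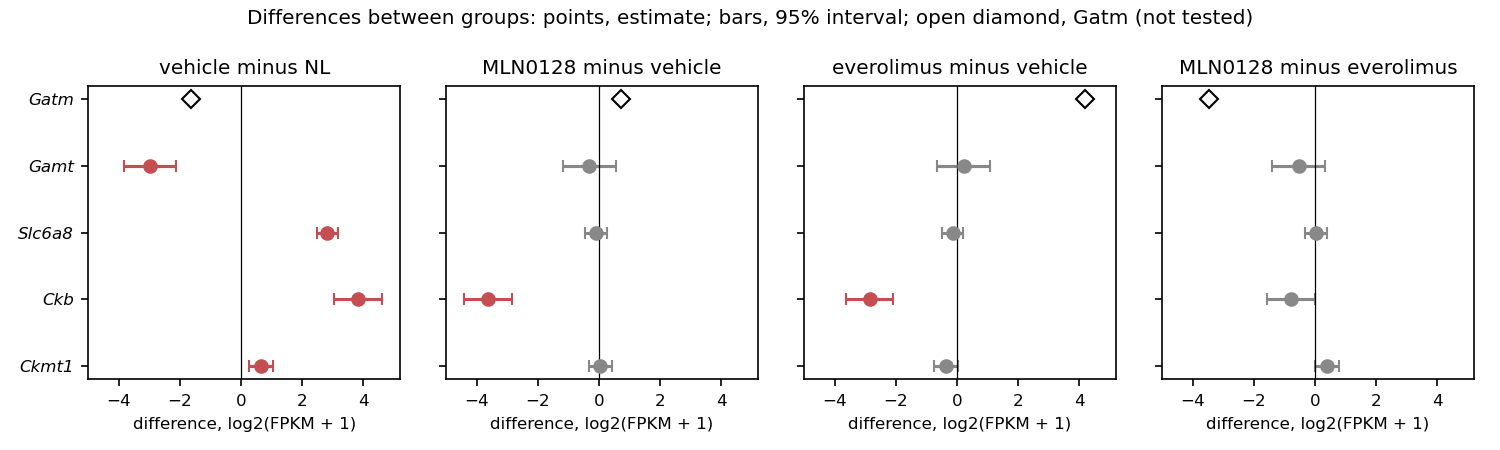
Difference between groups for each of the 5 genes on the log2(FPKM + 1) scale, with 1 panel per comparison; filled points are estimates with 95% intervals, red where the adjusted p was under 0.05, and the open diamonds are Gatm, which was not tested. Ckb is the gene with red points in both drug panels (-3.64 and -2.86), while Gamt, Slc6a8 and Ckmt1 have intervals that include 0 there. Colors and intervals come from the filtered fit for Ckmt1 too, so its pass through the filter bears on them.

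Over Ckb, Ckm and Ckmt1, creatine kinase RNA was nearly all Ckb in NL and vehicle tumors and mostly a mix of Ckb and Ckm with either drug. Ckm, the muscle-type kinase gene on chr7:19404776-19422841, is no member of the set and was followed beside it, and the remaining kinase gene, Ckmt2, was not analysed here. It was at 0 reads in NL and at 0.384, 0.195 and 0.663 FPKM with vehicle. It reached 8.53, 3.01 and 2.97 FPKM with MLN0128 and 7.0, 0.941 and 3.98 with everolimus, all above the vehicle tumors. Ckm rose by 1.93 with MLN0128 (SE 0.446, adjusted p = 0.00729) and by 1.60 with everolimus (SE 0.446, adjusted p = 0.0439) on the log2(FPKM + 1) scale, and neither passed treat (adjusted p = 0.146 and 0.921). Ckm reached the filter's 0.5 FPKM in every drug library but in only 1 vehicle library, so a difference was partly built in here too. Its p-values come from the filtered fit and are not free of that choice. An opposite-strand gene, A930016O22Rik, overlaps it.

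Summed over these 3 genes, creatine kinase RNA was 1.82 to 2.63 FPKM in NL, 25.7 to 74.3 in vehicle tumors, 5.63 to 11.4 under MLN0128 and 6.85 to 12.9 under everolimus. Ckb made up 98.3% to 100% of that sum in NL and 97.4% to 98.0% in vehicle tumors. Its share was 15.6%, 31.5% and 61.7% with MLN0128 and 44.6%, 80.9% and 50.9% with everolimus. Ckm took 75.0%, 53.5% and 36.1% with MLN0128 and 54.2%, 13.7% and 46.1% with everolimus. Ckmt1 took 9.4%, 15% and 2.23% with MLN0128 and 1.15%, 5.41% and 2.98% with everolimus. Of 5 skeletal muscle markers, 1 (Acta1) was in the table: it was at 14.2, 0 and 1.42 FPKM with MLN0128 and at 0.0689 to 0.209 with everolimus, so it was high in the library where Ckm was highest and at 0 in another with 3.01 FPKM of Ckm. Its part in the Ckm result was not tested beyond these values. The 4 smooth muscle markers in the table, of 5, summed to 2.5 to 3.63 FPKM in NL, 19 to 25.7 in vehicle tumors, 18.1 to 27.4 under MLN0128 and 12.9 to 22.4 under everolimus.

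**Figure D4:**
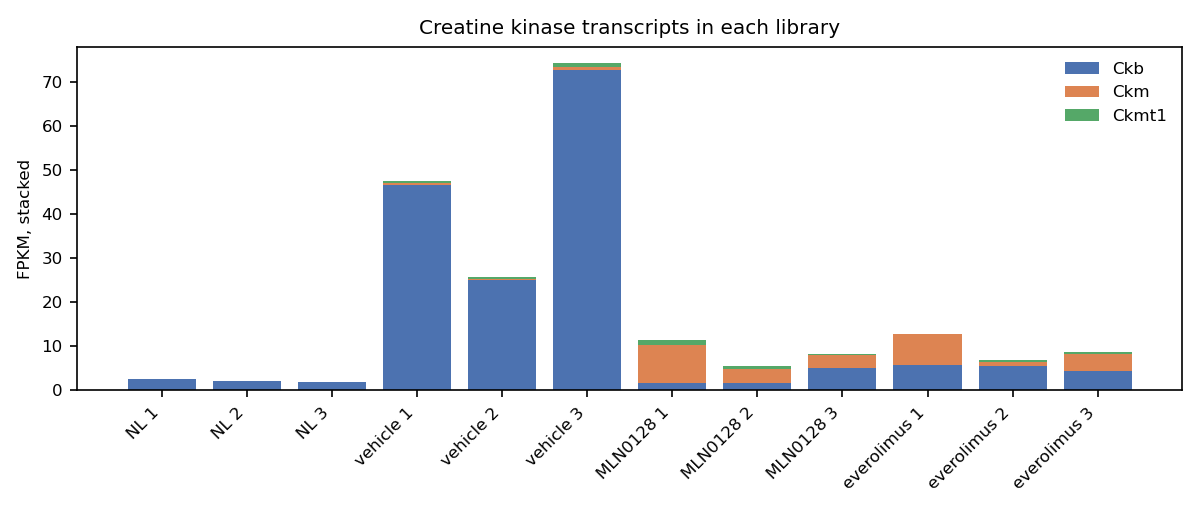
Creatine kinase RNA in each library in FPKM on a linear axis from 0, with Ckb, Ckm and Ckmt1 stacked. The vehicle bars (25.7 to 74.3 FPKM) are almost wholly Ckb, and the shorter bars of both drugs (5.63 to 12.9) hold Ckm beside it.

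Creatine synthesis draws on arginine, glycine and methyl groups, so 49 other genes of these supplies, of carriers and of kinases were followed, 46 of which were tested. Against NL, 13 were higher and 29 lower in vehicle tumors (36.0% and 33.0% over all tested genes), with a median difference of -1.19 against 0.06 over all tested genes. With MLN0128, 7 were higher and 12 lower than with vehicle (14.9% and 17.1% over all genes; median -0.32, all genes -0.01), the higher count being close to the share over all genes. With everolimus, 3 were higher and 1 lower (3.78% and 6.05% over all genes), with a median of 0.04 against 0.03 over all genes. These counts were too small to set apart from those shares. Ckm, whose pass through the filter is described above, was 1 of the higher genes with each drug. Between the drugs, 0 were higher and 10 lower with MLN0128 by limma's moderated test (3.99% and 5.54% over all genes). The median was -0.40, against -0.03 over all genes. At an unadjusted p under 0.05 by that test, 2 were higher and 17 lower. The share of all genes at that cut was not computed, so this split has nothing to be set against. By treat, the counts were 10 higher and 23 lower against NL, where treat called 32.7% of all genes in either direction. They were 0 and 5 with MLN0128 against vehicle, where it called 2.13%. Treat called 0 in either direction with everolimus and between the drugs (0.604% and 0.0417% of all genes). On recovered reads, limma's voom called 4 in total with everolimus against vehicle and 13 in total between the drugs. The voom share over all genes was not computed.

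These splits moved with the scaling between libraries. With FPKM rescaled to the same sum in every library, 18 neighbours were higher and 17 lower in vehicle tumors than in NL, 8 and 10 with MLN0128 against vehicle, and 2 and 8 with MLN0128 against everolimus. Over all genes, that scaling moved the share of calls that were higher from 52.1% to 85.1%, from 46.5% to 73.7% and from 41.9% to 86.5%, and the median difference to 1.00, 0.19 and 0.18. The everolimus against vehicle counts of neighbours, 3 and 1, were equal under every scaling tried.

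Among glycine genes, those that build serine, from which glycine is made, were the farthest above NL. Of 15 tested, 5 were higher, about the 36.0% of all genes, and 8 lower, against 33.0%, in vehicle tumors. Phgdh, the entry to serine synthesis, rose by 6.75 (adjusted p = 2.13e-07) from 0.298, 4.78 and 0.308 FPKM in NL to 197 to 269 with vehicle. Psat1, the next step, rose by 6.06 (adjusted p = 2.46e-06) from 0.850, 9.78 and 0.428 to 195 to 218. NL replicate 2 stood apart for both genes, still far below every tumor. Neither gene would have passed the filter on low values without tumor libraries, so their difference from NL was partly built in. Agxt, which makes glycine from glyoxylate in liver, fell by 6.27 (adjusted p = 2.82e-08) from a median of 241 to 2.43 FPKM. With MLN0128, 3 rose and 5 fell against vehicle (14.9% and 17.1% over all genes), the higher count being near that share. Psph, the last step of serine synthesis, fell by 2.23 (adjusted p = 0.000218) from 32.6 to 41.4 FPKM down to 6.24 to 8.12. The glycine carrier gene Slc6a9 fell by 1.64 (adjusted p = 0.000606) and Gldc, which cleaves glycine, by 1.32 (adjusted p = 4.3e-05). With everolimus only Shmt1 of the 15 passed the moderated test, up by 0.74 (adjusted p = 0.0189), where 3.78% of all genes were called higher. Between the drugs, 5 of the 15 were lower with MLN0128, against 5.54% of all genes. They were led by Psph at -1.83 (adjusted p = 0.00615), Slc6a9 at -1.41 (adjusted p = 0.0089) and the mitochondrial Shmt2 at -1.09 (adjusted p = 0.0187).

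Among 11 arginine genes tested, 2 were higher and 9 lower in vehicle tumors than in NL, against 36.0% and 33.0% of all genes. The urea cycle genes Arg1 and Otc fell by 4.14 (adjusted p = 4.98e-06) and 3.78 (adjusted p = 3.07e-05), and the arginine carrier gene Slc7a1 rose by 3.71 (adjusted p = 5.19e-08). In NL Slc7a1 was at 0.0563 to 0.173 FPKM, so it passed the filter on low values through tumor libraries only. Its difference from NL was thus partly built in. With MLN0128, Ass1, which makes argininosuccinate, fell by 0.95 (adjusted p = 0.0335) and Odc1, the entry to polyamines, by 0.66 (adjusted p = 0.00616). With everolimus 0 of the 11 passed limma's moderated test against vehicle, where 3.78% of all genes were called higher and 6.05% lower. Of the 11, 1 (Oat, 0.57) had an unadjusted p under 0.05. Between the drugs, only Odc1 passed, lower with MLN0128 by a difference of -0.69 (adjusted p = 0.0189), where 5.54% of all genes were called lower.

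Among 11 methyl donor genes, 3 were higher and 7 lower in vehicle tumors than in NL, against 36.0% and 33.0% of all genes, so the higher count was near that share. Bhmt, which remethylates homocysteine with betaine, fell by 5.11 (adjusted p = 0.000439), and the methyltransferase genes Pemt and Nnmt fell by 2.80 (adjusted p = 5.99e-05) and 2.69 (adjusted p = 0.000226), beside Gamt's 2.99. With MLN0128, Cth and Cbs, which turn homocysteine into cysteine, were lower than with vehicle, at -2.12 (adjusted p = 0.000506) and -0.89 (adjusted p = 0.00819). Between the drugs Cth was lower with MLN0128, at -1.78 (adjusted p = 0.00864).

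Among 4 carriers tested, Slc6a6, the taurine carrier gene of the same family as Slc6a8, followed another course from it. It rose by 1.51 from NL to vehicle (adjusted p = 8.5e-07), fell by 1.15 with MLN0128 (adjusted p = 0.00014) and by 0.55 with everolimus (adjusted p = 0.0178), and was lower with MLN0128 than everolimus by a difference of -0.59 (adjusted p = 0.0168). Slc6a12 and Slc6a13, carriers of betaine and GABA, fell by 3.01 (adjusted p = 7.65e-07) and 1.26 (adjusted p = 0.00103) from NL to vehicle, as did Slc16a12, a creatine carrier named after its values were seen, by 1.10 (adjusted p = 0.000205). Neither drug moved these 3 past the threshold.

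The adenylate kinases, which also balance adenine nucleotides, were 2 higher and 2 lower of 4 in vehicle tumors, too few to set apart from the 36.0% and 33.0% of all genes. Ak1, the cytosolic one, rose by 2.79 (adjusted p = 6.91e-05), and the mitochondrial Ak3 and Ak4 fell by 1.5 (adjusted p = 1.5e-06) and 0.66 (adjusted p = 0.0165). In NL Ak1 was at 0.0739 to 0.14 FPKM, so it too passed the filter through tumor libraries only. With MLN0128, Ak1 rose by 1.33 against vehicle (adjusted p = 0.0255). With everolimus, Ak4 rose by 0.75 (adjusted p = 0.0487), and it was lower with MLN0128 than everolimus (-1.35, adjusted p = 0.00766). None of the everolimus calls named here for neighbours passed treat.

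**Figure D5:**
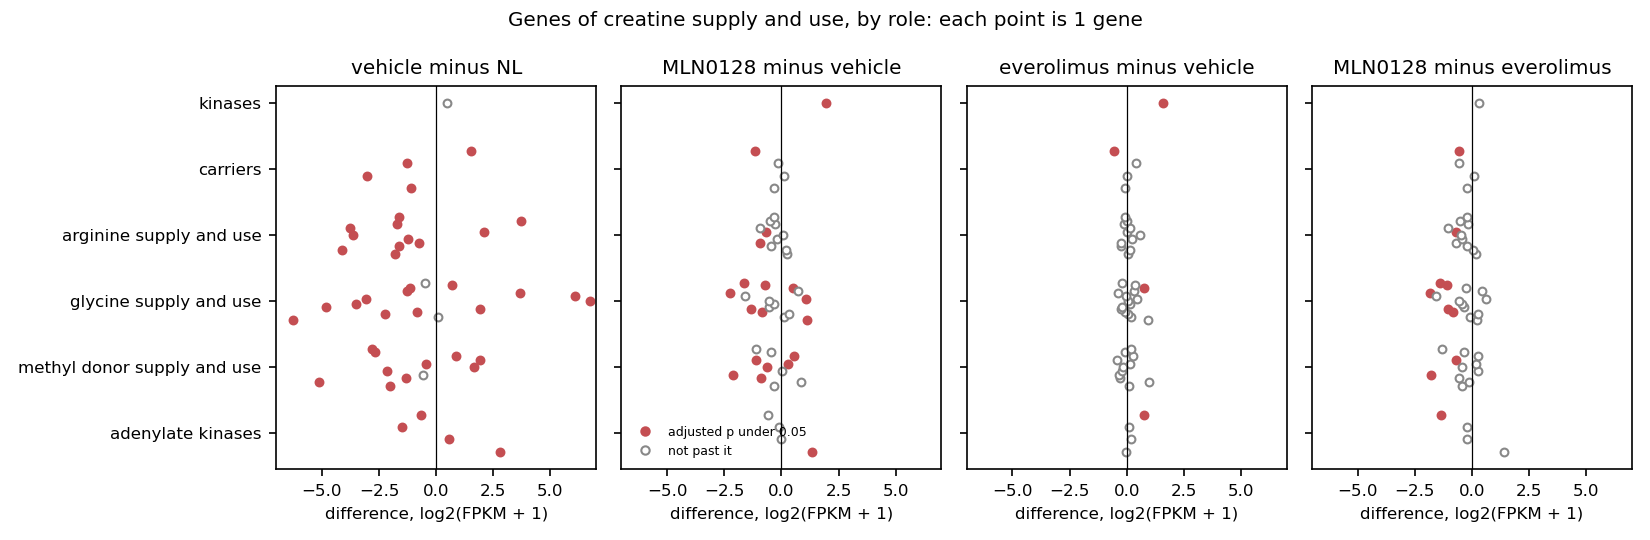
Differences of the 46 tested neighbour genes on the log2(FPKM + 1) scale, by role, with 1 panel per comparison; each point is a gene, red where the adjusted p was under 0.05 by limma's moderated test. Points spread from -6.27 to 6.75 in vehicle minus NL, and in everolimus minus vehicle 4 are red, from -0.55 to 1.60.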

How the data were processed

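The deposited values are the authors' FPKM for 12 libraries, linear and rounded to 3 significant digits. Per the study's methods, Novogene made and sequenced the libraries, reads were counted per Ensembl gene, and symbols came from org.Mm.eg.db. The submitters' processing notes list FastQC 0.11.7 and GRCm38, and the aligner and gene lengths are not given in the sources used here. The labels and methods give 3 weeks of treatment, and the labels were followed. The study's results text gives 3 days, in its passage on the tumors that were sequenced. The study tested with edgeR's glmTreat, a count test that was not used here because the values are FPKM.

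Here log2(FPKM + 1) was fitted with limma 3.58.1 in R 4.3.3, all 12 libraries in 1 model with an intensity trend in the prior variance, over the 14397 genes that reached 0.5 FPKM in 3 or more libraries, at an adjusted p of 0.05. The treat test used a fold of 1.5. Differences on this scale understate changes of low genes. Replicates are separate tumors or livers as the labels give them, and nothing says how their mice relate, so p-values measure the spread between these samples.

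The members and gene lists were chosen with earlier results of these data known. Named neighbours are, per role and comparison, the 3 with the largest differences among those past the threshold. The values of a withheld gene are not reported here. Exon lengths from GENCODE M21 (GRCm38) gave 16864 symbols a length. FPKM times length fell within 0.1 of a whole read for 98.2% to 98.9% of low values, which gave the recovered reads, and showed that the authors' scaling carried factors of 0.585 to 0.596 in NL and 1.10 to 1.37 in tumors. 22 symbols had been turned into dates and stayed in the fit unnamed. Promoters are RefSeq's, found for 4 of the 5 genes. Alternatives covered pseudocount, filter, scaling, test, libraries, prior and replicates. Python 3.11.15, pandas 2.3.3 and matplotlib 3.10.9 were used.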

Additional observations from a re-analysis of the deposited data

How the results depend on the processing

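The calls of Gamt, Slc6a8 and Ckb against NL and of Ckb with each drug kept their direction under every alternative run. They stayed past the threshold under every alternative that left 2 or more libraries in each group. Sizes against NL moved: Gamt ran from -3.28 to -1.84, Slc6a8 from 2.72 to 4.11 and Ckb from 3.47 to 5.11. The second value of each is that with FPKM rescaled to 1 sum. With vehicle minus NL, Gatm was -1.95 at a pseudocount of 0.1, -0.72 with the FPKM of each library rescaled to 1 sum, -1.56 with upper quartile scaling, -0.84 with plain library totals and -2.0 by voom on recovered reads, and everolimus minus vehicle was 4.69 by voom. Ckmt1 against NL (0.65) did not pass treat. By treat, neighbour genes past the threshold numbered 5 with MLN0128 against vehicle, 0 with everolimus against vehicle and 0 between the drugs (all genes 2.13%, 0.604% and 0.0417%). With only the 6 libraries compared they numbered 2 with everolimus against vehicle and 0 between the drugs.

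Leaving out 1 library at a time gave -0.86 to -0.02 for Gamt with MLN0128 minus vehicle (past the threshold without vehicle replicate 2), -1.16 to -0.59 for Ckb and 0.24 to 0.64 for Ckmt1 between the drugs (both past it without MLN0128 replicate 3, Ckmt1 having entered the test through vehicle and MLN0128 libraries only). Neighbour counts ran from 12 (without MLN0128 replicate 1) to 19 with MLN0128 against vehicle, from 0 (without vehicle replicate 3; 1 without vehicle replicate 1 or everolimus replicate 1, and 2 without any NL library) to 5 with everolimus against vehicle, and from 6 (without MLN0128 replicate 1, or everolimus replicate 3) to 15 between the drugs. The cause of each was not tested, and the share over all genes was not computed for these counts.

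The numbers do not pair the samples: of 18 same-numbered pairs, 1 correlated above 0.1 (range -0.29 to 0.15), and 1 of 12 libraries correlated best with its own number. With a replicate block the neighbour counts were 41, 17, 3 and 10, and no call of a member changed. Leaving out both libraries with Xist RNA was an alternative chosen after seeing the data. It left 1 MLN0128 library, so no call with MLN0128 is read from it. In the comparisons without MLN0128 no call of a member changed, but those use the left-out libraries only for the shared estimate of spread. Depth limits Ckmt1 most, with 2 reads over the 3 normal livers.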

Other observations

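Across the 12 libraries, the gene most like Gatm was Msl1, part of a histone acetyltransferase complex, with a Pearson r of 0.959 on log2(FPKM + 1), followed by Mroh2a (0.862), Bcorl1 (0.862), Ints8 (0.844) and Gm3226 (0.839). Msl1 stood at 14.5 to 15.6 FPKM with everolimus and at 10.8 to 12.7 in the other 9 libraries, a much narrower range than that of Gatm. Over the 9 tumors alone, Msl1 led again (0.986), then Utp14b (0.961), Gm14150 (0.958), Phtf2 (0.945) and Men1 (0.939). Among these, Gm3226 and Gm14150 had the widest gap. They stood at 5.60 to 7.03 and 2.49 to 4.14 FPKM with everolimus and at no more than 0.561 and 0.587 elsewhere. Outside everolimus, only MLN0128 replicate 3 reached the filter's 0.5 FPKM for either gene, so both were tested through the everolimus libraries. All of these genes were picked for likeness to Gatm, so a gap of this kind was built in.

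The genes most like Ckb were Sfn (r = 0.980), Ptgr1 (0.973), Fchsd1 (0.971), Castor2 (0.970) and Tmod1 (0.966), each high in vehicle tumors alone. They were picked for likeness to Ckb, so this shared pattern was built in. Tmod1 reached the filter's 0.5 FPKM in the vehicle libraries only, and Fchsd1 in those and in MLN0128 replicate 3. Ptgr1, a prostaglandin reductase gene, stood at 35.9 to 61.8 FPKM with vehicle, 2.82 to 4.42 with MLN0128, 4.17 to 4.81 with everolimus and 3.08 to 3.71 in NL. Castor2, a relative of the arginine sensor upstream of mTORC1, stood at 2.27 to 3.69 FPKM with vehicle, 0.261 to 0.525 with MLN0128, 0.856 to 1.32 with everolimus and 0.355 to 0.492 in NL.

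For Gamt the most alike were Rgn (0.990), Ninj1 (0.987), Lamtor2 (0.987), Dnajb2 (0.983) and Ociad2 (0.982). For Slc6a8 they were Lgals2 (0.993), Ggt1 (0.992), Ptp4a3 (0.992), Tmem41a (0.992) and Me2 (0.989), and for Ckmt1 Gm47708 (0.964), 1700086P04Rik (0.939), Nedd4l (0.938), Trpm6 (0.918) and Vps37b (0.916). Each r has n = 12 (or 9) libraries that share groups of 3, so it mostly reflects the groups. With another pseudocount, scaling or a library left out, the 5 genes named over 12 libraries stayed among the top 5 in part: 1 to 4 of them for Gatm, 1 to 5 for Ckmt1, 2 to 5 for Gamt and Ckb, and 3 to 5 for Slc6a8. For Gatm over the 9 tumors it was 1 to 4.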
